A study of Mus musculus with 10 samples.

Results

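The genes described here are 10 immediate early transcription factors, Egr1, Egr2, Egr3, Fos, Fosb, Fosl1, Fosl2, Jun, Junb and Ier2. They were taken as the rows of the deposited count table whose GENCODE symbol is one of these 10 names, and the set was put together with earlier results of these data known. All 10 were found among the 18381 genes of the table, and all 10 passed the filter on low counts that left 14504 genes for testing. The samples were first lower molar teeth of wild-type C57BL/6JOlaHsd mouse embryos at embryonic day 14 (E14), kept for 6 h in hanging-drop culture. One tooth of each embryo received IGF1, the insulin-like growth factor 1, at a concentration of 750 ng/ml in phosphate-buffered saline with bovine serum albumin, and the other tooth received an equal volume of the same solution without IGF1 (control). Embryos 1, 2, 3, 4 and 6 were used, which gives 5 IGF1 teeth and 5 control teeth, and left and right sides were balanced between the treatments. Each sample is the RNA of 1 whole cultured tooth at a single time, so epithelium and mesenchyme were measured together. Earlier times and uncultured teeth were not analysed here.

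Immediate early genes are transcribed within minutes of a growth factor signal and need no new protein synthesis for it. Growth factor receptors, the IGF1 receptor included, activate the kinase ERK, which phosphorylates ternary complex factors bound with SRF at a DNA element called the CArG box, while CREB and ATF proteins act through cyclic AMP response elements. The transcripts of Fos and Egr1 are short-lived, so after a stimulus their amounts usually rise and fall back within hours. EGR proteins are zinc finger factors that bind GC-rich DNA. FOS proteins pair with JUN proteins to form AP-1, and Ier2 encodes a small nuclear protein induced together with them.

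Total estimated counts were 2845773 to 8403151 in the control teeth and 3456634 to 8763113 in the IGF1 teeth, and embryo 1 had the lowest total in both groups. Levels are given as CPM, the usual scaling of a gene's counts to libraries of the same size, with library sizes adjusted by the trimmed mean of M-values (TMM). Changes are log2 fold changes of IGF1 over control from edgeR's quasi-likelihood test with embryo as a block, and a gene was called at a Benjamini-Hochberg adjusted p under 0.05. Of all genes tested, 11.5% were called, of which those lower with IGF1 were 4.76% of the genes tested and those higher were 6.72%.

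Upstream sequence was at hand for 6 of the 10 genes in the RefSeq promoter table (GRCm38.p6), matched by symbol, and covers Fos, Fosb, Fosl2, Jun, Junb and Egr2. The 140 bases from 150 to 11 bases before each RefSeq transcript start were searched on both strands for 4 short motifs. These were the CArG box, the core of a cyclic AMP response element (CRE, TGACG), the AP-1 site (TGANTCA) and the EGR site (GCGTGGGCG or GCGGGGGCG). The 4 genes with a CRE core are shown, since this was the motif that most of the 6 shared, with 1 window for each gene. Sequences run 5′ to 3′ on the strand of the gene, and capitals mark the matches.
Egr2, chr10:67537719-67537858, plus strand, inside the gene in an intron of its longer transcripts: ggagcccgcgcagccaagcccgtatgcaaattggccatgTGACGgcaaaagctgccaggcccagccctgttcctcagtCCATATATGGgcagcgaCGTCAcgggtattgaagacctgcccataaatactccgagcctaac
Fos, chr12:85473740-85473879, plus strand, outside annotated genes: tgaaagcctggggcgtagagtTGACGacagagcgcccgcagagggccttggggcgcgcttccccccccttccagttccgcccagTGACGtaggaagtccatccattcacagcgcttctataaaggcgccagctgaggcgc
Fosb, chr7:19310056-19310195, minus strand, outside annotated genes: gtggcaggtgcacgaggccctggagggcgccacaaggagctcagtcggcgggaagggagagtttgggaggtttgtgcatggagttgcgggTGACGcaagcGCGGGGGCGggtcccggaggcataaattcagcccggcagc
Junb, chr8:84978759-84978898, minus strand, outside annotated genes: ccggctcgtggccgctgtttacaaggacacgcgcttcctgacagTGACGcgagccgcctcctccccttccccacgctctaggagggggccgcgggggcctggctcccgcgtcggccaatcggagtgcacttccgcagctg

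In the Fos window TGACG begins 129 and 66 bases before the start. The Junb match begins 106 bases before the start, and in Fosb a CRE core at 60 bases is followed by an EGR site, GCGGGGGCG, at 50 bases. The Egr2 window holds a CRE core at 111 bases, a CArG box at 72 bases and a further CRE core, read on the opposite strand as CGTCA, at 55 bases. None of these matches overlap each other. The 6 genes have 10 windows in all, since the table holds 5 for Egr2, which partly overlap. A CRE core was in 6 of the 10 windows, compared with 12.3% of all 32851 windows of this length. Of the 5 Egr2 windows 3 hold a CRE core and 4 a CArG box, and the one at the annotated start of the gene holds neither. The CArG box was in 0.886% of all windows and was found in the windows of no other of the 6 genes. Sequence further upstream was not searched, so a CArG box may lie outside these windows. The EGR site was in 2 of the 10 windows, those of Fosb and Fosl2, and in 2.28% of all windows. The AP-1 pattern TGANTCA was in 0 of the 10 windows and in 4.07% of all windows. Variants of the site were not searched, and the Jun window holds TGACATCA, which the pattern does not match. A match is a stretch of letters only, and binding was not measured.

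After 6 h with IGF1, Egr1 and Egr3 were lower and no gene of the group was called higher. Egr1 fell from a mean of 49.0 to 33.4 CPM with a nearly equal ratio in every embryo, and Egr3 fell further and more unevenly. The calls were thus 2 lower, 0 higher and 8 not called. A negative fold change was fitted for 8 of the 10 genes, compared with 50.6% of all genes tested. The median log2 fold change of the 10 genes was -0.30, and that of all genes tested was -0.00. Genes lower with IGF1 in every embryo were 4 of the 10, namely Egr1, Egr3, Fos and Ier2, against 11.2% of all genes. In whole teeth, fewer cells that express a gene and less RNA per cell cannot be told apart.

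**Figure D1:**
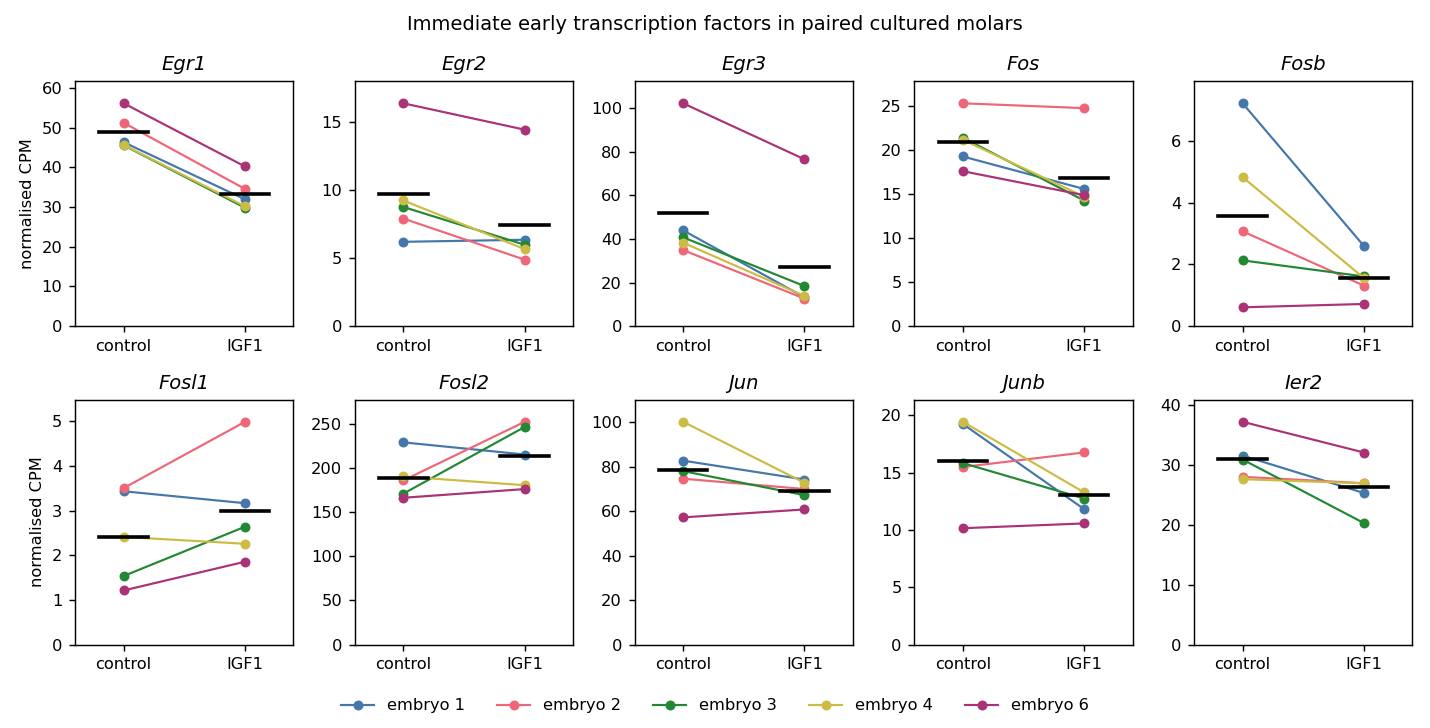
Level of each of the 10 genes (vertical axis, CPM, starting at 0) in control and IGF1 teeth, with 1 point per tooth, lines that join the teeth of an embryo, and black bars for the mean of 5 teeth. The control and IGF1 points of Egr1 do not overlap (45.6 to 56.2 and 29.8 to 40.3 CPM), and embryo 6 stands above the rest for Egr3 in both groups.

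Egr1 encodes a zinc finger factor that is a standard readout of ERK signalling. It lies at chr18:34859823-34864984 on the plus strand (GRCm38). In the control teeth of embryos 1, 2, 3, 4 and 6 its level was 46.4, 51.3, 45.6, 45.7 and 56.2 CPM, and in the IGF1 teeth of the same embryos it was 32.0, 34.6, 29.8, 30.2 and 40.3 CPM. Every IGF1 tooth was below every control tooth, and Egr1 was the 1 gene of the 10 for which the groups did not overlap. Of all genes tested, 3.03% were lower with IGF1 without overlap. The means were 49.0 ± 4.65 and 33.4 ± 4.28 CPM (SD, n = 5), and the IGF1 tooth was on average 32.1% lower than the control tooth of its embryo. The log2 fold change was -0.56 (SE 0.0767, 95% interval -0.73 to -0.39, edgeR adjusted p = 0.00116). The ratios within embryos lay between -0.61 and -0.48 on the log2 scale, which is the narrowest spread among the 10 genes. Counts of Egr1 were 111 to 386 per tooth.

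Egr3, an EGR factor that is itself a target of other EGR proteins in several cell types, lies at chr14:70077203-70082614 on the plus strand. Its level in the control teeth, in the same order of embryos, was 44.0, 34.9, 40.8, 38.3 and 102.4 CPM. In the IGF1 teeth it was 13.2, 12.6, 18.4, 13.8 and 76.7 CPM. Both teeth of embryo 6 were the highest of their group, and the IGF1 tooth of embryo 6 was above 4 of the 5 control teeth, so the groups overlapped. Without embryo 6, left out here after its values were seen, the groups did not overlap, which is a description only. Of all genes tested 4.83% were lower with IGF1 without overlap when embryo 6 was left out. Within each embryo the IGF1 tooth was lower, with log2 ratios of -1.73, -1.47, -1.15, -1.47 and -0.42. The fitted log2 fold change was -1.17 (SE 0.164, 95% interval -1.53 to -0.81, edgeR adjusted p = 0.00133), and counts were 46 to 676. The call depended on comparing teeth within embryos. Without the block, which called 6.12% of all genes, the log2 fold change of Egr3 was -0.94 with an edgeR adjusted p of 0.313. Without embryo 6 it was -1.43 with an adjusted p of 2.25e-04.

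Egr2, which is needed for myelination by Schwann cells and for hindbrain segmentation, lies at chr10:67535475-67542188. It measured 6.18, 7.89, 8.74, 9.22 and 16.4 CPM in the control teeth and 6.34, 4.87, 5.97, 5.65 and 14.4 CPM in the IGF1 teeth. The IGF1 tooth was the lower one in 4 of 5 embryos, and the groups overlapped. The log2 fold change of -0.44 (95% interval -0.81 to -0.07) did not pass the test, with an edgeR adjusted p of 0.121. As for Egr1 and Egr3, both teeth of embryo 6 held the highest level of their group. The 3 EGR genes summed per kb of exon came to 25.6 ± 8.38 CPM per kb in the control teeth and 15.7 ± 8.32 CPM per kb in the IGF1 teeth (SD, n = 5). Egr1 made up 44.7% ± 8.19 of this sum in the control teeth and 52.9% ± 13.8 in the IGF1 teeth, and Egr3 44.2% ± 7.91 and 33.2% ± 13.7. In embryo 6 the Egr3 share was 57.3% in the control tooth and 56.8% in the IGF1 tooth. In the other embryos it was 36.5% to 45.1% in the control teeth and 23.8% to 33.1% in the IGF1 teeth. The difference in these shares was not tested.

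The high Egr3 level of embryo 6 was set beside genes of the enamel knot, the epithelial signalling centre of the tooth, in a list of 12 genes drawn up after these values were seen. Shh, Fgf3, Fgf4 and Fgf20 encode secreted signals of the knot, and these 4 of the 12 genes were highest in embryo 6 in both groups. Of all genes, 7.6% were, but since the list followed the values this is a description only. Fgf4 measured 7.88 CPM in the control tooth of embryo 6 and 2.27 to 4.12 CPM in the other control teeth. With IGF1 it measured 9.71 CPM in embryo 6 and 0.594 to 1.44 CPM in the rest. Shh was 50.9 CPM in embryo 6 and 25.8 to 44.3 CPM in the other controls, and 30.0 CPM against 7.49 to 13.5 CPM with IGF1. Other genes of the list were lowest in embryo 6 in a group. Control levels of embryo 6 were below the rest for Wnt10b (10.8 against 11.6 to 18.9 CPM) and Slit1 (4.39 against 4.49 to 6.28 CPM), and the IGF1 level of Bmp2 was (5.57 against 6.91 to 12.6 CPM). Over the list, 3 of the 12 genes fell with IGF1 (Shh, Fgf3 and Bmp2), 1 rose (Slit1) and the median log2 fold change was -0.75. Whether the amount of enamel knot tissue has a part in the Egr3 levels was not tested.

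**Figure D2:**
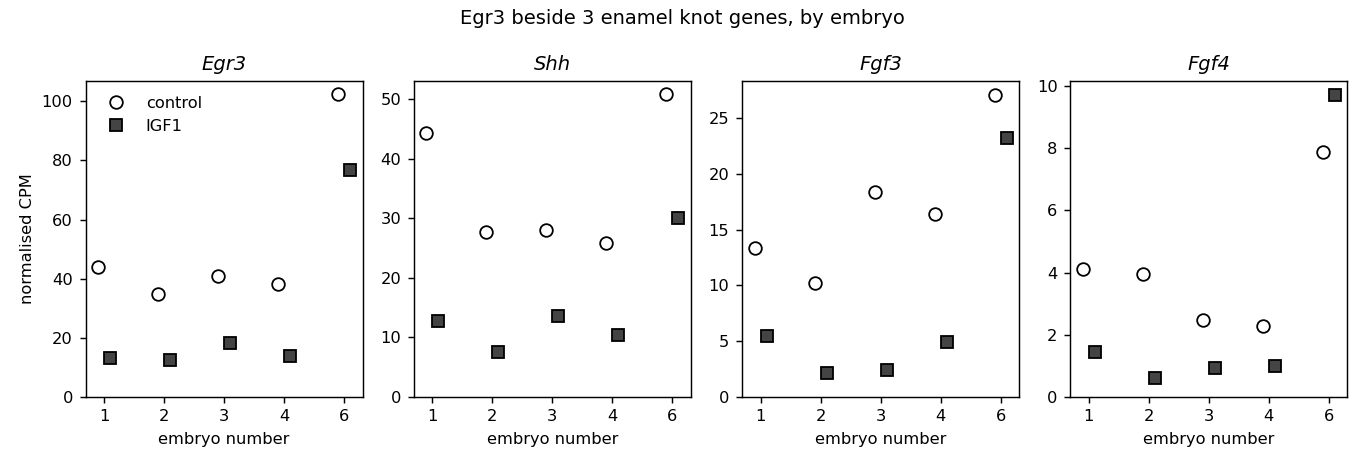
Level (vertical axes, CPM) of Egr3 and of the enamel knot genes Shh, Fgf3 and Fgf4 by embryo (horizontal axis), with open circles for control teeth and filled squares for IGF1 teeth. The Egr3 level of embryo 6 was 102.4 CPM in the control tooth and 76.7 CPM in the IGF1 tooth, against 34.9 to 44.0 and 12.6 to 18.4 CPM in the other embryos, and the 3 knot genes drawn, chosen from the 4 that were highest in embryo 6 in both groups, are likewise highest there.

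No FOS family gene passed the test, and 2 of the 4 had an unadjusted edgeR p under 0.05. Such values were common over all genes, since an unadjusted edgeR p of 0.0435 (Ier2) ranked 3634 of the 14504 tested. Fos, the founding AP-1 subunit, lies at chr12:85473890-85477273. It measured 19.2, 25.3, 21.4, 21.1 and 17.6 CPM in the control teeth and 15.6, 24.7, 14.2, 14.7 and 14.8 CPM with IGF1. The IGF1 tooth was lower in all 5 embryos, but in embryo 2 the log2 ratio was only -0.03, and the groups overlapped through its IGF1 tooth. The log2 fold change was -0.34 (SE 0.120, 95% interval -0.60 to -0.07, edgeR adjusted p = 0.0984).

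Fosb, whose splice form ΔFosB is known for its long-lived protein, lies at chr7:19302696-19310051 on the minus strand. It had 4 to 34 counts per tooth and the lowest mean level per kb of exon of the 10 genes in both groups. Its levels were 7.21, 3.07, 2.13, 4.82 and 0.606 CPM in the control teeth and 2.59, 1.31, 1.61, 1.55 and 0.714 CPM in the IGF1 teeth. The tooth with IGF1 was lower in embryos 1, 2, 3 and 4 and slightly higher in embryo 6, where the counts were 5 with IGF1 and 4 in the control. A log2 fold change of -1.03 (SE 0.335, 95% interval -1.77 to -0.30) was fitted, and it did not pass the test (edgeR adjusted p = 0.0730). The ratios within embryos had the widest spread of the 10 genes, with an SD of 0.79 on the log2 scale.

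Fosl1 and Fosl2 encode FRA1 and FRA2, FOS-related proteins that lack the strong activation domain of FOS, and they were the 2 genes with a positive fitted change. Fosl1 (chr19:5447547-5455946) measured 3.44, 3.51, 1.54, 2.41 and 1.21 CPM in the control teeth and 3.17, 4.99, 2.64, 2.26 and 1.86 CPM in the IGF1 teeth. It was higher with IGF1 in 3 embryos, and its log2 fold change was 0.35 (95% interval -0.26 to 0.97, edgeR adjusted p = 0.462). Fosl2 (chr5:32135801-32157842) had the most counts of the 10 genes, 668 to 2152 per tooth. Its levels were 229.5, 186.3, 171.3, 190.8 and 166.6 CPM in the control teeth and 215.7, 252.8, 247.0, 180.8 and 176.5 CPM with IGF1. The log2 ratio was 0.44 in embryo 2 and 0.53 in embryo 3, and between -0.09 and 0.08 in the others. The fitted change was 0.18 (95% interval -0.04 to 0.40, edgeR adjusted p = 0.276).

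The makeup of the FOS family, measured per kb of exon, leaned towards Fosl2 in all teeth. Fosl2 was 64.7% ± 3.49 of the summed level in the control teeth and 71.6% ± 3.76 in the IGF1 teeth (SD, n = 5). Its share was higher with IGF1 in every embryo, while the group ranges, 59.8% to 68.3% and 66.5% to 77.0%, overlapped. Fos made up 29.7% ± 3.87 and 23.0% ± 3.25. The summed level of the family was 30.2 ± 3.66 and 31.0 ± 5.59 CPM per kb. The difference in shares was not tested.

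**Figure D3:**
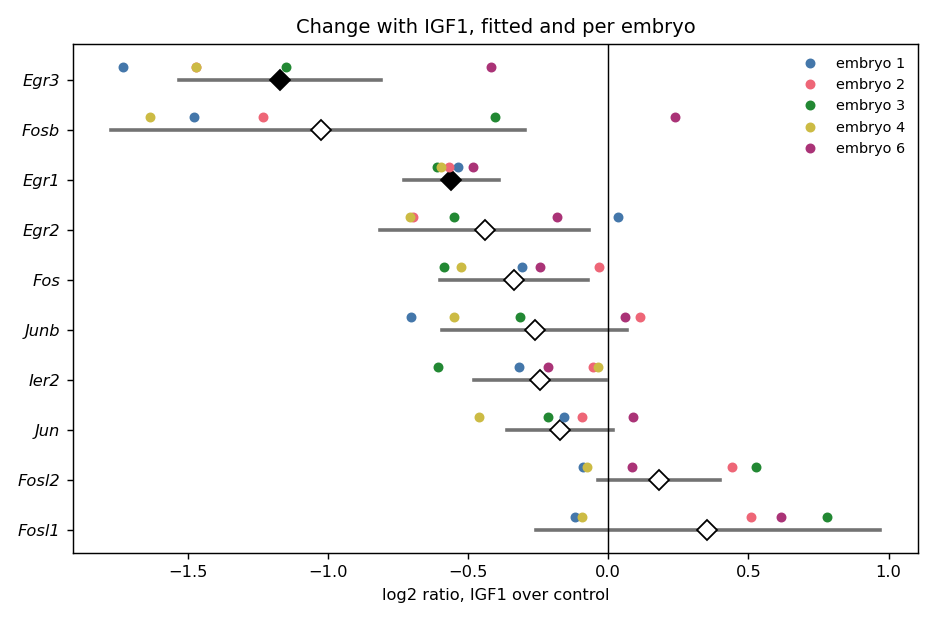
Log2 ratio of IGF1 over control (horizontal axis) for each of the 10 genes, with a diamond for the fitted value (filled where called), a bar for its 95% interval and 1 coloured point per embryo. Intervals of Egr1, Egr3, Egr2, Fos, Fosb and Ier2 lie below 0, and only Egr1 and Egr3 passed the test after adjustment over all genes.

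None of Jun, Junb and Ier2 was called. Jun, the main partner of FOS in AP-1, is a gene of 1 exon at chr4:95049034-95052222 on the minus strand. It measured 82.8, 74.7, 78.1, 100.3 and 57.2 CPM in the control teeth and 74.3, 70.0, 67.3, 72.8 and 60.8 CPM with IGF1. Its IGF1 levels were the less variable, and 4 of 5 embryos had the lower level with IGF1. The log2 fold change was -0.17 (95% interval -0.36 to 0.02, edgeR adjusted p = 0.235).

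Junb, which can oppose JUN at some promoters, lies at chr8:84974484-84978718. It measured 19.2, 15.5, 15.8, 19.4 and 10.1 CPM in the control teeth and 11.8, 16.8, 12.7, 13.3 and 10.6 CPM in the IGF1 teeth. It was lower with IGF1 in 3 embryos and higher in 2, with a log2 fold change of -0.26 (95% interval -0.59 to 0.07, edgeR adjusted p = 0.298). Ier2 (chr8:84661331-84662852) measured 31.6, 28.1, 30.9, 27.7 and 37.3 CPM in the control teeth and 25.3, 27.0, 20.3, 27.0 and 32.1 CPM with IGF1. All 5 embryos had less Ier2 with IGF1, with log2 ratios from -0.61 in embryo 3 to -0.04 in embryo 4. The log2 fold change of -0.24 (95% interval -0.48 to -0.01) missed the threshold, with an edgeR adjusted p of 0.173. Junb overlaps Prdx2 on the opposite strand, Fosl1 likewise overlaps Ccdc85b and Jun overlaps the antisense gene Junos. Strand use in the counting is not given in the sources used here, so reads of these 3 genes and their partners may not be separable.

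Levels of different genes were compared per kb of exon. In the control teeth Jun was highest at 24.7 ± 4.86 CPM per kb, followed by Ier2 at 20.4 ± 2.53 and Fosl2 at 19.5 ± 2.56 (SD, n = 5). Egr3 at 11.8 ± 6.43, Egr1 at 10.9 ± 1.04, Fos at 8.89 ± 1.23 and Junb at 6.96 ± 1.64 CPM per kb came next. Egr2 at 2.85 ± 1.15, Fosl1 at 1.19 ± 0.519 and Fosb at 0.571 ± 0.408 CPM per kb were lowest. Egr3 stood above Egr1 through embryo 6 only, and in the other 4 embryos Egr1 was the higher in the control teeth. Without embryo 6, a choice made after the values were seen, the control mean of Egr3 was 8.96 CPM per kb, below those of Egr1 and Fos. With all embryos, ranges of neighbours in this order overlapped except between Egr2 and Fosl1. In the IGF1 teeth Fosl2 stood first at 22.2 ± 3.69 CPM per kb and Jun next at 21.7 ± 1.67, with overlapping ranges, and Egr3 was behind Egr1 and Fos at 6.11 ± 6.33 CPM per kb. Without embryo 6 the Egr3 mean with IGF1 was 3.29 CPM per kb, also behind Junb at 5.93. With all embryos, the ranges of the IGF1 teeth were separate between Ier2 and Egr1, between Junb and Egr2 and between Fosl1 and Fosb.

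**Figure D4:**
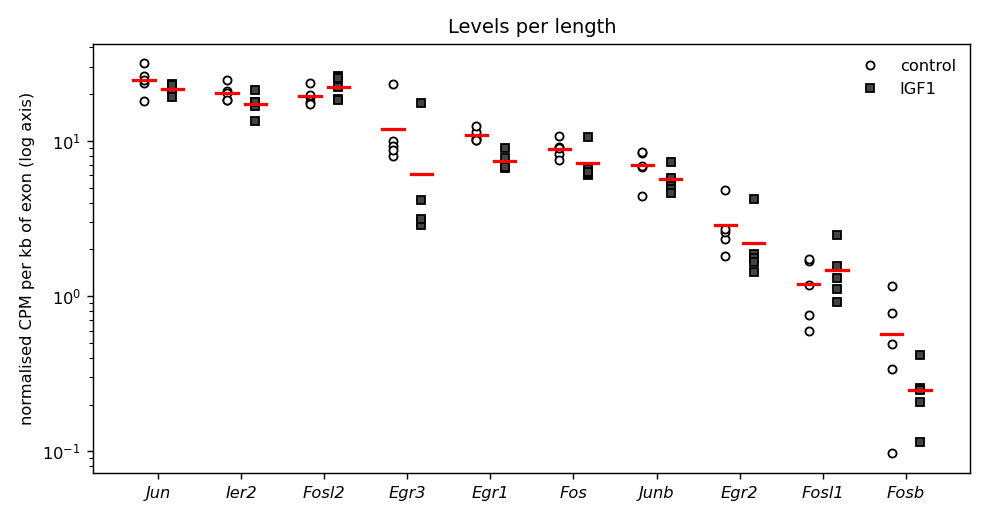
Level per kb of exon (vertical axis, CPM per kb, log scale) of the 10 genes (horizontal axis) in control teeth (open circles) and IGF1 teeth (filled squares), with 1 point per tooth and red lines for group means. In the control teeth the means run from 0.571 CPM per kb for Fosb to 24.7 CPM per kb for Jun.

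The embryos differed in how many of the 10 genes were lower with IGF1. Embryo 4 had all 10 lower, embryo 1 had 9, embryo 3 had 8, embryo 2 had 7 and embryo 6 had 5. The median log2 ratio of the 10 genes was -0.54 in embryo 4 and -0.48 in embryo 3, and it was -0.06 in embryo 6 and -0.07 in embryo 2. That of all genes tested lay between -0.010 in embryo 2 and 0.016 in embryo 1. Embryos 2 and 6 thus had the smallest shift, with the falls of Egr1 and Egr3 present in both.

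Other genes of the same response were taken from lists. Of 26 further immediate early transcription factors and partners of AP-1 and EGR proteins, 24 were tested and 0 were called by edgeR, and 0 by DESeq2 or limma-voom. Their median log2 fold change was -0.01. An unadjusted edgeR p under 0.05 was found for 3 of the 24, and for at least 3634 of all 14504 genes tested. The 3 were Crem (a cyclic AMP response factor) at -0.33, Klf6 (a zinc finger factor) at -0.16 and Nab1 (a corepressor of EGR proteins) at 0.22. Among 25 immediate early genes other than transcription factors, all of them tested, 1 rose and 3 fell. Homer1, a synaptic scaffold gene, rose by 0.68 on the log2 scale (edgeR adjusted p = 0.00269). Ccn2 and Ccn1, matricellular protein genes that also respond to YAP, had log2 fold changes of -0.44 (adjusted p = 0.0264) and -0.42 (adjusted p = 0.0237), and Zfp36l1, an mRNA decay factor, -0.34 (adjusted p = 0.0168). The count of 4 in this list was 2 without embryo 2 and 1 without embryo 4, without embryo 6 or without the block.

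Factors and kinases that act upstream of these genes were taken from a pair of lists. Among SRF, its ternary complex partners and the MRTF coactivators, all 6 listed genes were tested, Srf was at -0.04 (edgeR adjusted p = 0.879), and only Mrtfb passed, at -0.22 (adjusted p = 0.0457). That call was lost in 8 of 11 alternative settings, leaving out any 1 embryo included. Of 16 kinases and adaptors of the ERK pathway, 2 rose, namely Map2k1, which encodes the ERK kinase MEK1, by 0.70 on the log2 scale (edgeR adjusted p = 0.0118) and Rps6ka1, an ERK substrate kinase, by 0.43 (adjusted p = 0.00506).

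Genes that ERK signalling induces form a further list, most of them feedback inhibitors of the pathway and 3 of them ETV transcription factors that act in its output. Of these 15 genes, 6 fell, 1 rose and 8 were not called, with a median log2 fold change of -0.23. Spry2 and Spry1, which encode Sprouty inhibitors of receptor signalling, fell by 0.90 and 0.66 on the log2 scale (edgeR adjusted p = 8.46e-04 and 0.0014). Dusp6, the ERK phosphatase, fell by 0.63 (adjusted p = 4.20e-04), and its IGF1 level was highest in embryo 6, as for Egr3. The ETV factor gene Etv1 and the inhibitor genes Il17rd and Spry4 fell as well. Dusp7, a further ERK phosphatase, rose by 0.32 (adjusted p = 0.0361), a call lost in 6 of 11 alternative settings. It was lost without the block, with the DESeq2 Wald test and without embryo 1, 3, 4 or 6. The 7 calls of this list were 4 without the block, and Dusp6 then had an adjusted p of 0.0679. Phosphorylated ERK was not measured.

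**Figure D5:**
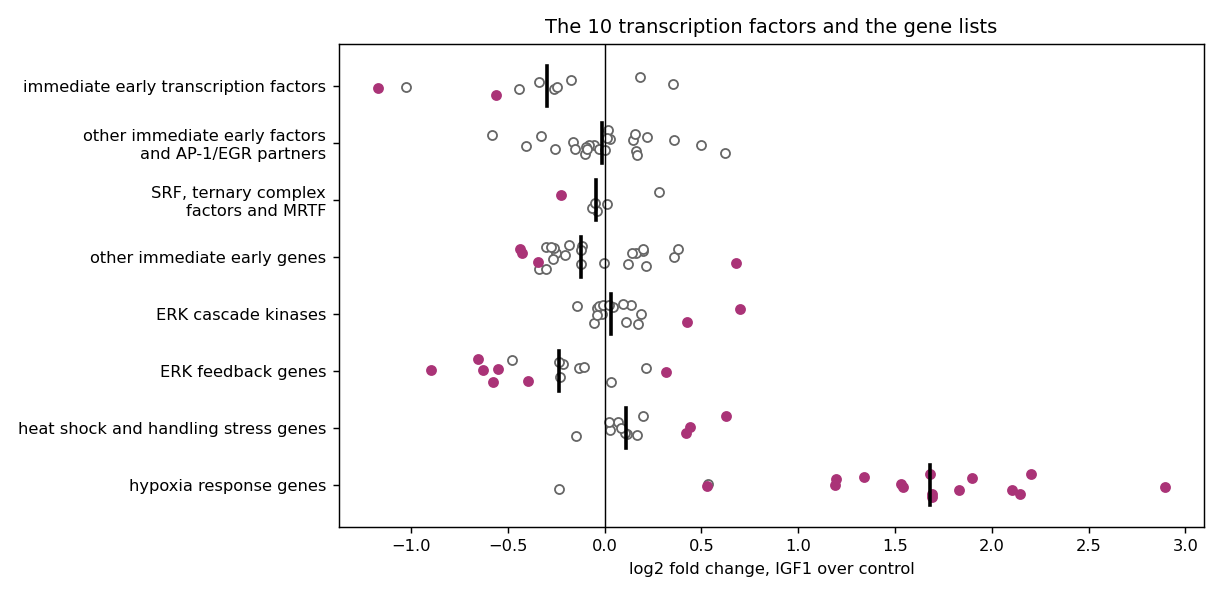
Log2 fold change with IGF1 (horizontal axis) of every tested gene in the 10 transcription factors and the gene lists (rows), with filled points for genes called by edgeR and a bar at each median. The 10 factors have a median of -0.30 and the genes induced by ERK, labelled as feedback genes, -0.23, while hypoxia response genes lie at 1.68.

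Stress genes and cell type markers moved between the groups too. Of 17 hypoxia response genes tested, 15 rose and 0 fell, with a median log2 fold change of 1.68. Ankrd37, Bnip3 and Higd1a rose most. The median log2 ratio of this list was positive in every embryo, at 2.75 in embryo 2 and 2.47 in embryo 3, the embryos with the largest ratios of Fosl2, and 0.54 to 0.94 in embryos 1, 4 and 6. Of 12 heat shock and handling stress genes, 3 rose, which were Hsp90aa1, Hspd1 and Hspe1. The part of either list in the values of the 10 genes was not tested.

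Of 10 markers of dental epithelium 1 rose, 2 fell and 7 were not called, and their summed levels were 1660 to 2430 CPM in the control teeth and 1885 to 2513 CPM with IGF1. Those of dental mesenchyme gave 1 fall (Vim) among 10, with sums of 4552 to 5837 and 4110 to 6372 CPM. Both tissues were thus present in every tooth. Haemoglobin and other red cell genes fell in 5 of 6 tested, with sums of 849 to 1421 CPM in the control teeth and 604 to 1108 CPM with IGF1. Endothelial genes had sums of 393 to 449 and 315 to 415 CPM with 1 fall of 8 (Cdh5), and macrophage genes 50.9 to 82.0 and 47.4 to 69.7 CPM with 1 fall of 6 (Csf1r). Of the muscle genes and the Schwann cell and glial genes, 4 of 7 and 2 of 6 were tested and 0 were called. Among 7 genes of bone and cartilage 1 rose, Sox9. Sums of the bone and cartilage genes were 343 to 1043 CPM in the control teeth and 283 to 1273 CPM with IGF1. Those of the muscle genes were 29.7 to 109 and 19.2 to 152 CPM, so both differed widely between teeth. The part of blood, vessel, immune, muscle, bone and cartilage cells in the levels of the 10 genes was not tested.

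The genes whose levels followed each factor most closely over the 10 teeth were ranked by Pearson's r of log2 CPM, as a description that both treatment and embryo enter. Pla2g7 (r = 0.944), Brdt (0.943) and Frmd4b (0.930) were nearest to Egr1. Gprin3 (0.915), Dach2 (0.902) and Fstl1 (0.889) were nearest to Fos, and Glis3 (0.962), Zbtb38 (0.934) and Crispld2 (0.919) to Jun. For Egr3, added after its values were seen, the nearest were Gldn (0.971), Me3 (0.967) and Dusp6 (0.956). No gene stood in more than 1 of these 4 short lists.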

How the data were processed

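The authors deposited estimated counts per gene from salmon for 10 cultured molars. The submitters' processing notes name FastQC 0.11.8, Trimmomatic 0.39, Salmon 0.99.0 and DESeq2, and the build GRCm38. The transcript set, the filter and strand use are not given in the sources used here. All values were whole numbers and the lowest gene total was 10. Reads of paralogs may be split by salmon's estimate. GENCODE M21 named 18287 of 18381 genes.

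Counts were tested with edgeR 4.0.16 (TMM, filterByExpr, quasi-likelihood test, Benjamini-Hochberg over 14504 genes, threshold 0.05) in R 4.3.3, with embryo as a block because both teeth of a pair came from 1 embryo. Deviations from group means correlated at -0.0389 to 0.319 within embryos. Between embryos they correlated at -0.194 to 0.232, with a median of -0.0463, so the ranges overlapped. Samples of a group differed beyond counting noise (chi-square per degree of freedom 4.68 to 19.4). Python 3.11.15 served for summaries, and the prior count of log2 CPM was 2. The procedure was tested on simulated data. Alternatives were no block, DESeq2 1.42.0 size factors or Wald test, limma-voom (limma 3.58.1), other filters (none, or CPM of at least 1 in 5 samples) and leaving out each embryo.

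The 10 genes and the lists were chosen with earlier results of these data known. Named from the lists were up to 3 rising and 3 falling genes with the largest change, and for Egr1, Fos and Jun the 3 genes of highest correlation. Etv1, Il17rd and Spry4, the nonsignificant genes of the partner list, the called marker genes and the enamel knot genes were named after their values were seen. Some results of the marker lists are not reported here.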

Additional observations from a re-analysis of the deposited data

Results flagged for a closer look

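A tooth was picked out where its gap to the nearest of the other 4 teeth of its group, divided by the range of the group, exceeded Dixon's 95% critical value. The rate of about 1 in 20 by chance holds for independent groups of unselected genes, and the share over all genes was not computed. Among the 10 transcription factors 4 of 20 groups were picked out. These genes were chosen with earlier results known and were measured in the same teeth, so this count is a description only. The other groups checked are of listed genes named for their change and of the enamel knot genes, which were chosen after the values of embryo 6 were seen, so that no chance count applies to them. The IGF1 tooth of embryo 6 stood above the rest for Egr3 (gap over range 0.910, 76.7 against 12.6 to 18.4 CPM) and Egr2 (0.847, 14.4 against 4.87 to 6.34 CPM). The control tooth of embryo 6 did so for Egr3 (0.866, 102.4 against 34.9 to 44.0 CPM), and the IGF1 tooth of embryo 2 for Fos (0.874, 24.7 against 14.2 to 15.6 CPM).

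Among the listed genes the IGF1 tooth of embryo 6 was the highest for Dusp6 (0.775, 192 against 94.3 to 116 CPM), Hsp90aa1 (0.871), Shh (0.731), Fgf3 (0.842, 23.3 against 2.14 to 5.47 CPM), Fgf4 (0.907) and Dkk4 (0.924). The control tooth of embryo 4 was the highest for Dkk4 (0.869). The IGF1 tooth of embryo 3 was the highest for Ccn2 (0.883) and that of embryo 2 for Cdkn1a (0.804). The IGF1 tooth of embryo 2 was the lowest for Rps6ka1 (0.840), and the control tooth of embryo 2 was the lowest for Spry2 (0.716).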

How the results depend on the processing

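Among the 10 transcription factors, every fitted change kept its sign in all 11 alternatives, and 109 of 110 values stayed on the same side of the threshold. The exception was Egr3 without the replicate block, at -0.94 with an adjusted p of 0.313, so that 1 of the 10 genes was called in place of 2. The cause was not tested. The block changed no other call among the 10. Egr1 ran from -0.58 to -0.55, with adjusted p from 2.33e-04 to 0.00804, and Egr3 from -1.43 to -0.94, with adjusted p from 9.08e-09 to 0.313. Fosb had an adjusted p between 0.0546 and 0.248, and Fos between 0.0809 and 0.333. Over all genes, 1666 were called, 887 without the replicate block and 986 to 1602 when an embryo was left out, with the lowest counts without embryo 4 (986) or embryo 6 (994). For the 17 genes that the naming rule took from the lists, 28 of 187 values lost their call, and the other listed genes are not among these values. Counts per tooth were lowest for Fosb (4 to 34) and Fosl1 (8 to 42).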

Other observations

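Members of the NR4A and MAF families, further immediate early factors, had positive fitted changes that did not pass the test. Log2 fold changes were 0.50 for Nr4a1 (edgeR adjusted p = 0.192), 0.36 for Nr4a3 (adjusted p = 0.496) and 0.62 for Maff (adjusted p = 0.282). Klf2, a shear-responsive factor of endothelium, was at -0.58 (adjusted p = 0.219). These genes were picked after their values were seen.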
